A study of Mus musculus with 6 samples.

Results

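The genes that run the cell cycle and copy DNA were compared between regulatory T (Treg) cells with and without the transcription factor Batf. The set holds 52 listed genes, chosen by name with earlier results of these data known. Of these, 51 were measured, through 121 probe sets that the platform annotation assigns to exactly 1 gene, among 18193 genes and 34945 such probe sets in all. Ccnb1, a mitotic cyclin, was not analysed here because the annotation table lists no probe set for it. The genes fall into 11 S-phase genes, 21 measured mitotic genes and 19 genes of cyclin-CDK control, which include the CDK inhibitors and Plagl1.

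RNA came from CD4+ T cells that carried a human CD2 (hCD2) reporter of Foxp3. The cells were sorted from the lymph nodes and spleens of C57BL/6 animals, with no culture or treatment. There were 3 arrays from FoxP3hCD2.Batf+/+ mice and 3 from FoxP3hCD2.Batf-/- mice, each hybridised with labelled total RNA. The labels name no promoter or Cre that would restrict the loss of Batf to Treg cells, and they give no age. Whether every array stands for its own animal is not stated, and the p-values therefore cover only the spread among these arrays, some of which may be technical. Each value is a log2 distance from the Batf+/+ median of its probe set, so it shows how a gene differed between arrays but not its absolute level. A transcript too dim to be measured would therefore also sit near 0, and the markers of the labelled cell type could be checked for differences only.

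A dividing cell passes from G1 through S phase, in which DNA is copied, to mitosis. Cyclins D and E with their kinases phosphorylate the pocket proteins Rb1, Rbl1 and Rbl2, which frees E2F factors to switch on the genes of S phase. Cyclins A and B with Cdk1 then drive mitosis, and CDK inhibitors hold cells in G1. Most naive T cells rest, whereas part of the Treg pool divides under steady-state conditions. S-phase and mitotic transcripts in sorted cells can therefore follow the share of cells in cycle, which was not measured here. In RNA from a mixed population, fewer cycling cells and less RNA per cycling cell cannot be told apart.

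Batf was lower on all 3 Batf-/- arrays (-3.13, -3.16 and -2.37) than on the Batf+/+ arrays (-0.13, 0 and 0.14). Its log2 difference was -2.89 ± 0.19 (SE, with 3 arrays in each genotype; limma adjusted p = 0.000202). The T and Treg cell markers Cd3e and Cd4 had differences of -0.09 ± 0.07 and 0.01 ± 0.08, and Foxp3 one of -0.12 ± 0.08. None of 8 such markers passed the test, with 2 at an unadjusted p below 0.05, as were 1399 of all 18193 genes. The genotypes did not overlap in 4 of the 8 (50%), beside 12% of all genes. Ikzf2, which encodes the Treg factor Helios, had a difference of -0.51 ± 0.10 (limma adjusted p = 0.0526), Il2ra one of 0.21 ± 0.07 and Ctla4 one of -0.25 ± 0.17. The part of these in the cell cycle values was not tested. Over all genes 208 of 18193 passed an adjusted p below 0.05, which is 1.14%.

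Of the 51 measured genes, 1 rose and 0 fell in Batf-/- Treg cells by limma at an adjusted p below 0.05, against 1.14% of all genes (0.313% higher and 0.83% lower), and 6 had an unadjusted p below 0.05, as did 1399 of the 18193 genes. The share called was 1.96%, near that over all genes. With the replicate number of the arrays as a block 2 of the 51 rose, beside 1.61% of all genes called. The gene that rose in both fits was Plagl1, a zinc finger protein known for restraining proliferation, in which 1 of 3 probe sets passed on its own. Cdkn2c, which encodes the CDK inhibitor p18INK4c, had an adjusted p of 0.0530 by limma without the block and of 0.0193 with it. The median log2 difference of the 51 genes was 0.02, beside 0.0047 over all genes. The 95% intervals bound the differences in the values, but they cannot do so for a transcript too dim to be measured. In 45 of the 51 genes the whole interval lay within a 1.5-fold change in either direction, and in 18 within a 1.2-fold change. The 6 genes with wider bounds were Cdkn2c, Plagl1, Rbl2, Aurkb, Ube2c and Ccnb2. In 8 of the 51 genes (15.7%) the arrays of the genotypes did not overlap, 6 higher and 2 lower in Batf-/- cells. Over all genes the share was 12%, with 5.5% higher and 6.55% lower.

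**Figure D1:**
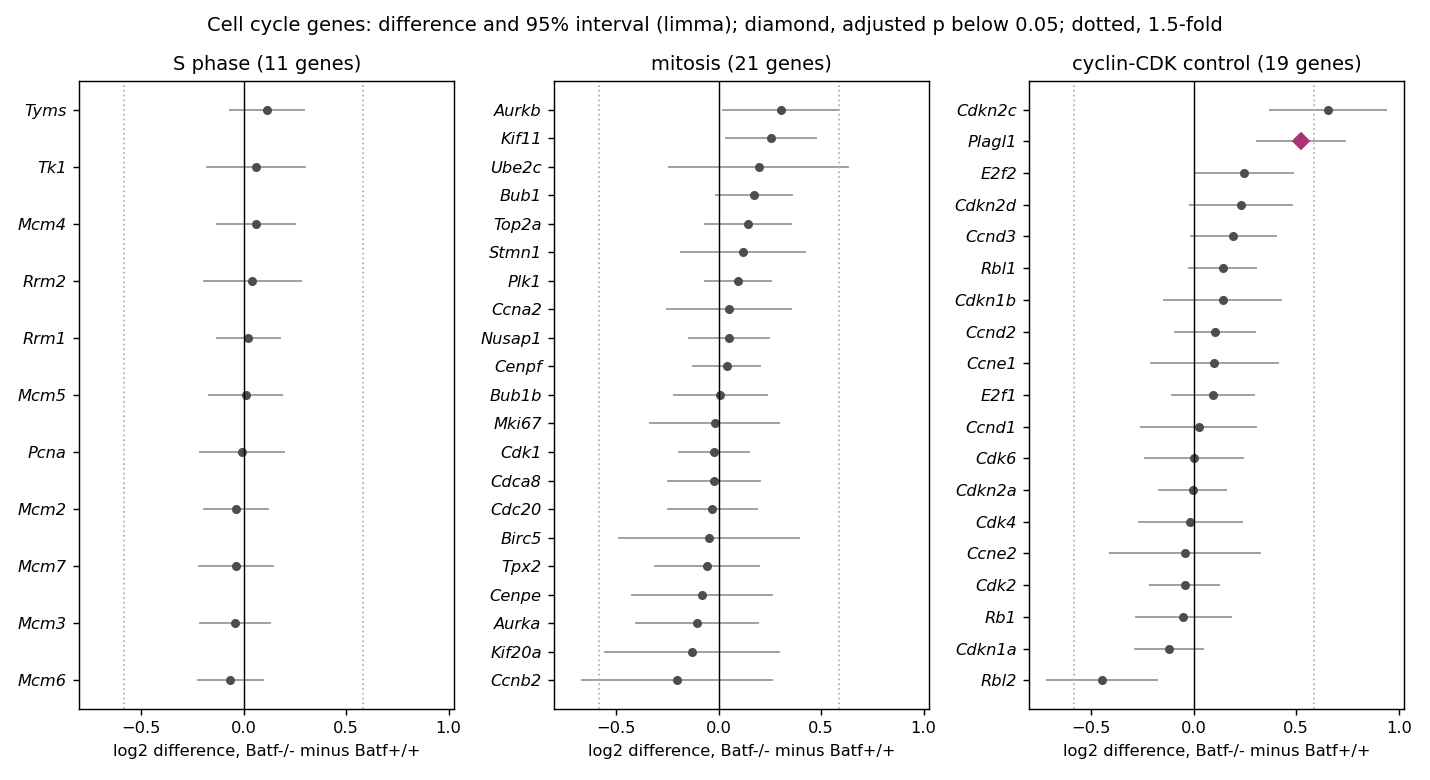
Log2 difference between Batf-/- and Batf+/+ Treg cells (x axis) for each of the 51 measured genes (y axis), by class, with the 95% interval from limma over 3 arrays per genotype. Points are genes, the diamond marks Plagl1, with an adjusted p below 0.05, and dotted lines mark a 1.5-fold change. All 11 S-phase intervals lie between the dotted lines, and Cdkn2c and Plagl1 stand farthest to the right.

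The S-phase genes were the most even of the classes. None of the 11 genes passed the test, beside 1.14% of all genes, and 0 had an unadjusted p below 0.05, beside 1399 of 18193. The log2 differences of the 11 genes ran only from -0.06 to 0.11 with a median of 0.01. All 11 intervals lay within a 1.5-fold change, and 8 within 1.2-fold. In 0 of the 11 genes did the arrays of the genotypes separate, beside 12% of all genes. In a class of 11 genes these counts of 0 are near the shares over all genes.

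The MCM proteins form the helicase that opens DNA at origins of replication. Mcm2 had values of 0.01, -0.10 and -0.07 on the Batf+/+ arrays 1, 2 and 3 and of -0.07, -0.10 and -0.10 on the Batf-/- arrays. Its log2 difference was -0.04 ± 0.07 (SE, n = 3 per genotype, 95% interval -0.20 to 0.13). The groups overlapped for Mcm2, as they did for the other 5 helicase subunits. Mcm3 was at 0.01, -0.06 and 0.05 in Batf+/+ and at -0.12, -0.03 and 0.03 in Batf-/- cells. Mcm4 was at 0.15, 0.002 and -0.11 against 0.12, 0.04 and 0.07. Mcm6, at 0.05, -0.06 and -0.02 against -0.08, -0.09 and -0.05, had the lowest difference of the class (-0.06, 95% interval -0.23 to 0.10). Mcm5 and Mcm7 had differences of 0.01 ± 0.08 and -0.04 ± 0.08.

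Pcna, the sliding clamp that holds DNA polymerase on its template, had values of 0, 0.09 and -0.07 in Batf+/+ and of 0.08, 0.09 and -0.16 in Batf-/- cells. The groups overlapped, with Batf-/- array 3 the lowest of the 6 arrays. None of the 4 genes of nucleotide supply passed the test. Rrm2, the S-phase subunit of ribonucleotide reductase, was at 0.05, -0.22 and 0.02 against -0.03, -0.15 and 0.14, and its partner Rrm1 had a difference of 0.02 ± 0.07. Tk1, the thymidine kinase of dividing cells, was at 0.04, -0.18 and 0 against -0.13, -0.05 and 0.21. Tyms, which makes thymidylate, had the highest difference of the class, 0.11 ± 0.08 (95% interval -0.07 to 0.30, limma adjusted p = 0.931), with values of 0.02, 0.01 and 0.13 against 0.25, 0.06 and 0.19. For Tyms, Batf-/- arrays 1 and 3 were above every Batf+/+ array and array 2 was not.

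Beyond these members, 49 of 52 further genes of DNA replication (origin recognition, polymerases, clamp loaders, histone chaperones and the like) were measured. None passed the limma test, beside 1.14% of all genes, and 1 had an unadjusted p below 0.05, as did 1399 of all 18193 genes. The median log2 difference of the 49 genes was -0.001. Rpa1, which coats single-stranded DNA, was the one with the lowest p. It had values of 0.08, 0.002 and -0.01 in Batf+/+ and of -0.17, -0.17 and -0.14 in Batf-/- cells, a difference of -0.19 ± 0.07 (adjusted p = 0.506). Orc1, a subunit of the origin recognition complex, had a difference of 0.17 ± 0.09, and Timeless, a protein of the replication fork, one of -0.24 ± 0.14.

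None of the 21 measured mitotic genes passed the limma test, beside 1.14% of all genes. An unadjusted p below 0.05 was found in 2, as in 1399 of all 18193 genes, so both counts are near the shares over all genes. Of the 21 genes 11 lay above 0 and 10 below, and the median log2 difference was 0.01, or -0.06 without Batf-/- array 3. On that array most of them were higher than on the other arrays. The median of the class was 0.22 there, beside -0.01 and -0.03 on Batf-/- arrays 1 and 2 and between -0.01 and 0.01 on the Batf+/+ arrays.

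Promoters of mitotic genes often carry CCAAT boxes, the element bound by NF-Y, and a cell cycle genes homology region (CHR), through which they are repressed outside G2 and mitosis. The 250 bases before the gene start are shown for Ccnb2 and Ube2c, the mitotic members that stood among the highest above the other Batf-/- arrays on array 3, with matches to these elements in capitals. They are RefSeq sequences of GRCm38.p6, from chr9:70421555-70421804 on the minus strand for Ccnb2 and chr2:164769679-164769928 on the plus strand for Ube2c.
Ccnb2: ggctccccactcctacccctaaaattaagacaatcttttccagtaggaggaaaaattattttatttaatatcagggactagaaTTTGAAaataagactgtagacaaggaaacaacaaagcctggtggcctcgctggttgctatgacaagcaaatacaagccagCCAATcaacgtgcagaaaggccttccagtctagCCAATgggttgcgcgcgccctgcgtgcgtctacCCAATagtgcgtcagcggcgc
Ube2c: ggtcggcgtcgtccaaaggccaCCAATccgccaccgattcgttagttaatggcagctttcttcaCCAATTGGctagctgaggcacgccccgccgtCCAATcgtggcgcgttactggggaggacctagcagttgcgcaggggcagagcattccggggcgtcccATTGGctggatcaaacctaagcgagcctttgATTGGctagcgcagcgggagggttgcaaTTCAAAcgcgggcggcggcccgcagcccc

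In these windows Ccnb2 has 3 matches to CCAAT and 1 to the CHR letters, and Ube2c has 6 and 1. Both strands were searched, for CCAAT, for TTTGAA or TTCGAA as the CHR, for TTTGGCGC, TTTCCCGC, TTTGCCGC or TTTCGCGC as an E2F element, and for TGANTCA as the AP-1 element that Batf dimers can bind. Of the 52 genes, 42 were in the promoter table, with 48 windows. CCAAT was found in 15 of 17 mitotic windows (88.2%), in 9 of 11 S-phase windows (81.8%) and in 6 of 20 windows of cyclin-CDK control genes (30%), beside 33.8% of all 32851 windows of the same length. CHR letters were found in 47.1% of the mitotic windows and 17.1% of all windows. E2F letters were found in 27.3% of the S-phase windows, 5.88% of the mitotic windows and 1.86% of all windows. AP-1 letters were found in 0 of the 48 member windows and in 6.75% of all windows. GC content was 58.5% in the mitotic windows and 53.2% in all windows, and these are matches of letters, not measured sites.

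**Figure D2:**
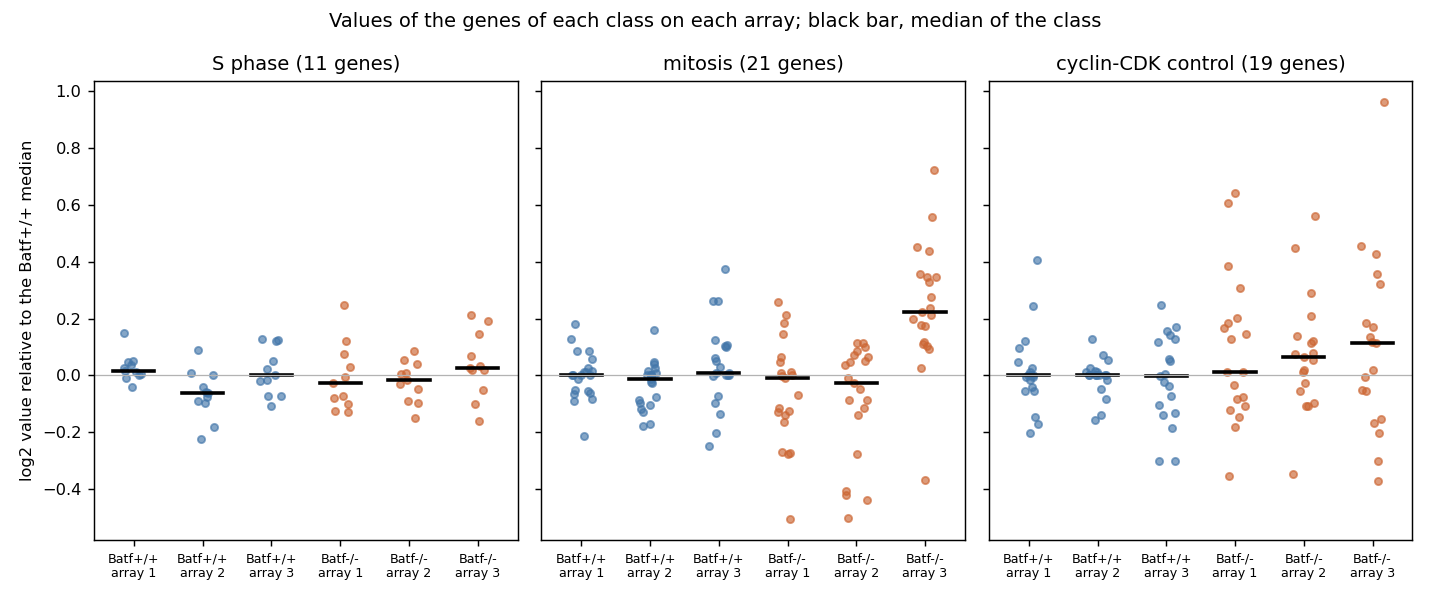
Log2 value relative to the Batf+/+ median (y axis) of each gene on each of the 6 arrays (x axis), by class, with Batf+/+ in blue and Batf-/- in orange. Each point is a gene and the black bar is the median of the class. The mitotic genes sit higher on Batf-/- array 3, with a median of 0.22, than on any other array, while the S-phase medians lie between -0.06 and 0.03.

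Array 3 was the highest of the Batf-/- arrays in 19 of the 21 mitotic genes (90.5%), beside 41.1% of all genes. It was above all 5 other arrays in 17 of the 21 genes, beside 22.2% of all genes. Over single probe sets it was the highest Batf-/- array in 31 of 43 (72.1%), beside 38.3% of all probe sets. Aurka and Top2a were the exceptions. The SD over the 3 Batf-/- arrays exceeded that over the 3 Batf+/+ arrays in 18 of the 21 genes (85.7%, beside 54.3% of all genes), with medians of 0.21 and 0.11. Among S-phase genes array 3 was the highest Batf-/- array in 6 of 11. Among 68 further mitotic genes from a wider list it was so in 38 (55.9%), with an array median of 0.06.

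Mki67, which encodes the proliferation marker Ki-67, had values of 0, -0.02 and 0.01 on the Batf+/+ arrays and of -0.13, -0.28 and 0.33 on Batf-/- arrays 1, 2 and 3. Arrays 1 and 2 lay below every Batf+/+ array and array 3 above, so the mean difference was -0.02 ± 0.14 (SE, n = 3 per genotype, 95% interval -0.34 to 0.30). Birc5, the survivin subunit of the chromosomal passenger complex, showed the same order, at 0, -0.13 and 0.03 against -0.28, -0.42 and 0.45. Ccnb2, a B-type cyclin that activates Cdk1, was at 0.06, -0.10 and 0 against -0.50, -0.50 and 0.36. Its log2 difference was -0.20 ± 0.21 (limma adjusted p = 0.994) with all arrays and -0.49 (limma adjusted p = 0.0470) without Batf-/- array 3. Ccnb2 was the one mitotic gene past the threshold in that fit, beside 1.06% of all genes. It was highest on the array left out and was described after its values were seen, so this p-value does not stand as a test of genotype. Birc5 without that array had a difference of -0.31 (adjusted p = 0.334) and Mki67 one of -0.20 (adjusted p = 0.678).

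Other mitotic genes were high on array 3 without being low on the other Batf-/- arrays. Ube2c, the ubiquitin-conjugating enzyme that serves the anaphase-promoting complex, was at 0.18, -0.12 and 0 in Batf+/+ and at 0.01, -0.09 and 0.72 in Batf-/- cells. Aurkb, the kinase of the chromosomal passenger complex, was at 0.13, 0 and -0.14 against 0.26, 0.09 and 0.56. Its log2 difference was 0.30 ± 0.13 (95% interval 0.02 to 0.59, limma adjusted p = 0.583), and 0.18 without array 3. Stmn1, a protein that destabilises microtubules, was at -0.05, -0.08 and 0.26 against 0.01, 0.05 and 0.44, so here Batf+/+ array 3 was high too.

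The genotypes did not overlap in 2 of the 21 mitotic genes (9.52%), beside 12% of all genes. These were Kif11, the motor that separates the spindle poles, and Plk1, a kinase of mitotic entry. Kif11 was at -0.06, -0.17 and 0.11 in Batf+/+ and at 0.18, 0.11 and 0.35 in Batf-/- cells, where the lowest Batf-/- value only just exceeded the highest Batf+/+ value. Its log2 difference was 0.26 ± 0.10 (limma adjusted p = 0.513). The 3 Kif11 probe sets gave 0.09, 0.28 and 0.40. Plk1 was at -0.01, 0 and 0.01 against 0.05, 0.05 and 0.17, a difference of 0.09 ± 0.07 (adjusted p = 0.956). Bub1, a kinase of the spindle checkpoint, was at -0.08, -0.03 and 0.12 against 0.21, 0.10 and 0.22 (difference 0.17 ± 0.08, adjusted p = 0.734), and its relative Bub1b had a difference of 0.01 ± 0.10.

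Cdk1, the kinase of mitosis, was at 0.01, 0 and -0.10 in Batf+/+ and at -0.13, -0.05 and 0.03 in Batf-/- cells, with a difference of -0.02 ± 0.08 (95% interval -0.20 to 0.15). Top2a, the topoisomerase that untangles sister chromatids, was at -0.09, 0.03 and -0.20 against 0.15, -0.09 and 0.11, and its 3 probe sets did not give the same order of arrays. Aurka, the kinase of the centrosome, ran against the other mitotic genes on array 3. Its values were 0.03, 0.16 and -0.25 in Batf+/+ and 0.003, -0.01 and -0.37 in Batf-/- cells, so it was lowest on array 3 in both genotypes. The rest (Ccna2, Cdc20, Kif20a, Nusap1, Tpx2, Cenpe, Cenpf and Cdca8) had differences between -0.13 and 0.05.

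Markers of other cell types were compared over the same arrays, of which Batf-/- array 3 was the highest for most mitotic genes. Batf itself was -2.37 on array 3, the highest Batf value of the Batf-/- arrays. Of 4 measured B cell markers 3 were highest of the Batf-/- arrays on array 3, beside 41.1% of all genes. The median of the B cell list was -0.04, 0.06 and 0.34 on Batf-/- arrays 1, 2 and 3 and between -0.07 and 0.07 on the Batf+/+ arrays. Cd79b, a chain of the B cell receptor, had values of -0.21, -0.37 and 0.47 on the Batf-/- arrays. Of 6 myeloid markers 5 were highest of the Batf-/- arrays on array 3, with a median of 0.21, beside -0.19 and 0.02 on arrays 1 and 2. Array 3 was also the highest Batf+/+ array in 6 of these 6 markers (beside 43.1% of all genes), with Batf+/+ medians of -0.07, 0 and 0.12. Pax5, which defines B cells, was at -0.19, 0.06 and -0.08. Of the NK cell markers, Eomes was at 0.10, 0.20 and 0.84 and Ncr1 at -0.44, 0.07 and -0.09 on the Batf-/- arrays. Erythroid markers had a median of 0.10 on array 3 and 0.11 on array 2, with array 3 the highest Batf-/- array in 3 of 4. In other lists it was so in 1 of 5 plasma cell, 1 of 3 germinal centre B cell, 1 of 4 dendritic cell and 1 of 4 stromal markers. By genotype, 1 of 5 plasma cell markers rose (Irf4, 0.54 ± 0.10, limma adjusted p = 0.0454), beside 1.14% of all genes. No marker of the other lists here passed. The genotypes did not overlap in 2 of 5 plasma cell and 1 of 3 germinal centre B cell markers. This held too for 1 of 2 NK cell and 1 of 4 stromal markers and no other list here, beside 12% of all genes. The part of these in the mitotic values was not tested.

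Of the wider list of 68 mitotic genes 1 rose and 0 fell (1.47% called, beside 1.14% of all genes). An unadjusted p below 0.05 was found in 4 of them, as in 1399 of all 18193 genes, and the median log2 difference was -0.01. Racgap1, a GTPase-activating protein of the central spindle needed for cytokinesis, was at 0.09, -0.04 and -0.05 in Batf+/+ and at 0.48, 0.46 and 0.51 in Batf-/- cells. It rose 1.40-fold (log2 difference 0.49 ± 0.07 SE, limma adjusted p = 0.0168), and its 3 Batf-/- arrays lay close together. Leaving out Batf+/+ array 2 raised the adjusted p to 0.105 and leaving out array 3 to 0.0732, and it was 0.0507, 0.0647 and 0.0563 without Batf-/- array 1, 2 or 3, and 0.137 after quantile normalization. Ncapg, a condensin subunit, and Cdc25b, a phosphatase that activates Cdk1, had differences of -0.28 ± 0.09 and -0.27 ± 0.09 (adjusted p = 0.340 and 0.406).

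Among the genes of cyclin-CDK control, 1 of 19 rose and 0 fell (5.26% called, beside 1.14% of all genes), with a median log2 difference of 0.09. With the replicate number of the arrays as a block, 2 of the 19 rose, beside 1.61% of all genes in that fit (0.5% higher and 1.11% lower). The arrays of the genotypes did not overlap in 6 of the 19 genes, 4 higher and 2 lower in Batf-/- cells, beside 12% of all genes. These were Cdkn2c, Plagl1, E2f2 and Rbl1 on the higher side, and Rbl2 and Cdkn1a on the lower side.

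**Figure D3:**
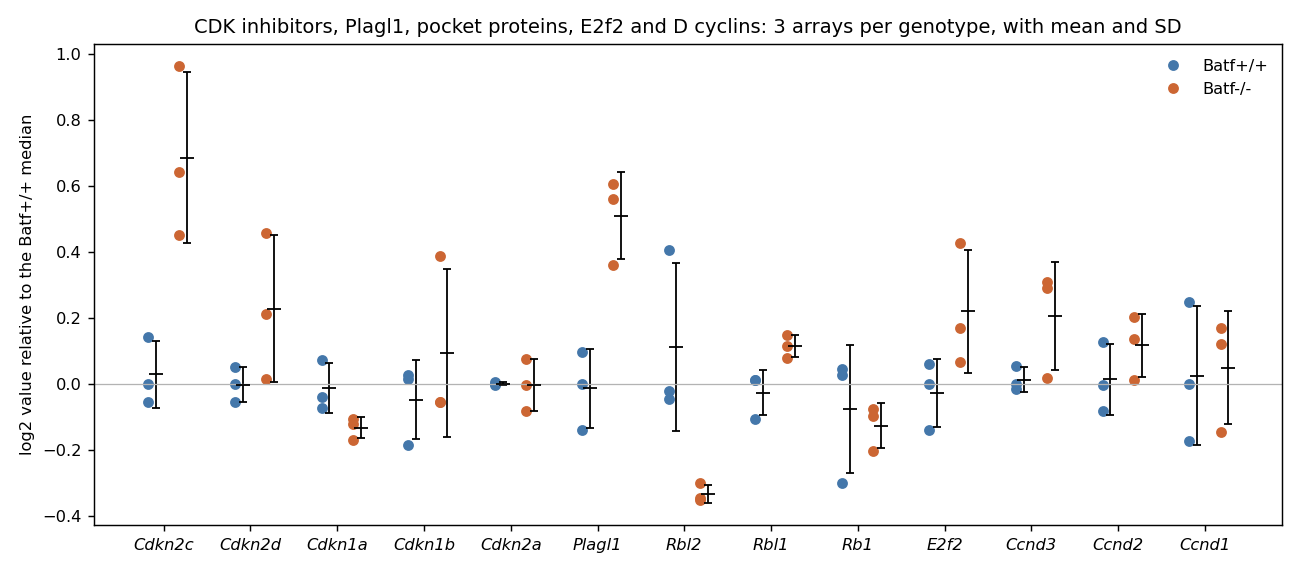
Log2 value relative to the Batf+/+ median (y axis) for the CDK inhibitors, Plagl1, the pocket proteins, E2f2 and the D cyclins (x axis), with 3 Batf+/+ arrays in blue and 3 Batf-/- arrays in orange, and the mean and SD in black. Cdkn2c at 0.45 to 0.96 and Plagl1 at 0.36 to 0.61 lie above every Batf+/+ array, and Rbl2 lies below.

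Among the CDK inhibitors of the set, Cdkn2a, Cdkn2c and Cdkn2d belong to the INK4 group, which blocks Cdk4 and Cdk6. Cdkn1a and Cdkn1b belong to the CIP/KIP group, which blocks further CDKs. Cdkn2c had values of -0.05, 0 and 0.14 on the Batf+/+ arrays and of 0.64, 0.45 and 0.96 on Batf-/- arrays 1, 2 and 3. Every Batf-/- array was well above every Batf+/+ array. Its log2 difference of 0.66 ± 0.13 (SE, n = 3 per genotype, 95% interval 0.37 to 0.94, 1.57-fold) was the largest of the 51 genes and just missed the threshold (limma adjusted p = 0.0530). It passed with the replicate block (0.0193), with array weights (0.0437) and without Batf-/- array 2 (0.0343). Leaving out any other array gave adjusted p values from 0.0721 to 0.224, and quantile normalization gave 0.0951. The gene has 1 probe set, so no second one could be compared.

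The other INK4 genes of the set did not separate. Cdkn2d, which encodes p19INK4d, was at -0.06, 0 and 0.05 in Batf+/+ and at 0.01, 0.21 and 0.46 in Batf-/- cells (difference 0.23 ± 0.11, limma adjusted p = 0.739), with Batf-/- array 1 inside the Batf+/+ range. Cdkn2a, from which p16INK4a and p19ARF are made, lay within 0.01 of 0 on the Batf+/+ arrays and at -0.08, 0.07 and -0.0046 on the Batf-/- arrays. Its difference had a 95% interval of -0.17 to 0.16. The 1 probe set of Cdkn2a gave -0.0046 on both Batf+/+ array 1 and Batf-/- array 3. A transcript too dim to be measured would also sit near 0, so whether Cdkn2a was detected is not known. Set side by side, the differences of Cdkn2c, Cdkn2d and Cdkn2a were 0.66, 0.23 and -0.005, and the differences between these genes were not tested.

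Cdkn1a, which encodes p21, was at -0.04, 0.07 and -0.07 in Batf+/+ and at -0.12, -0.11 and -0.17 in Batf-/- cells. The groups did not overlap, but the log2 difference was only -0.12 ± 0.08 (limma adjusted p = 0.892). Cdkn1b, which encodes p27, the inhibitor of resting T cells, was at 0.03, 0.01 and -0.19 against 0.39, -0.06 and -0.05. Array 1 alone was high in Batf-/- cells, and the difference was 0.14 ± 0.13 (95% interval -0.15 to 0.43).

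Plagl1 was at 0.10, 0 and -0.14 on the Batf+/+ arrays and at 0.61, 0.56 and 0.36 on the Batf-/- arrays, which did not overlap. It rose 1.44-fold (log2 difference 0.52 ± 0.10, limma adjusted p = 0.0432). Its probe sets were far apart. The probe set with the suffix _x was at 0.03, 0 and -0.26 against 1.29, 1.16 and 1.05, a difference of 1.24 ± 0.11 and alone among the 121 in passing the fit by probe set (limma adjusted p = 0.00258). In that fit 0.713% of all probe sets were called, 0.175% higher and 0.538% lower. The one with the suffix _a differed by 0.37 ± 0.18 and the one with neither by -0.05 ± 0.08. The suffix _x marks a probe set with probes that can also match other transcripts, and _a one whose probes match several transcripts of the same gene. Without probe sets of such suffixes the difference of Plagl1 was -0.05 and did not pass. By gene, leaving out Batf+/+ array 1, 2 or 3 gave an adjusted p of 0.0786, 0.158 or 0.149, leaving out Batf-/- array 1 or 2 gave 0.117 or 0.167, and quantile normalization gave 0.244.

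**Figure D4:**
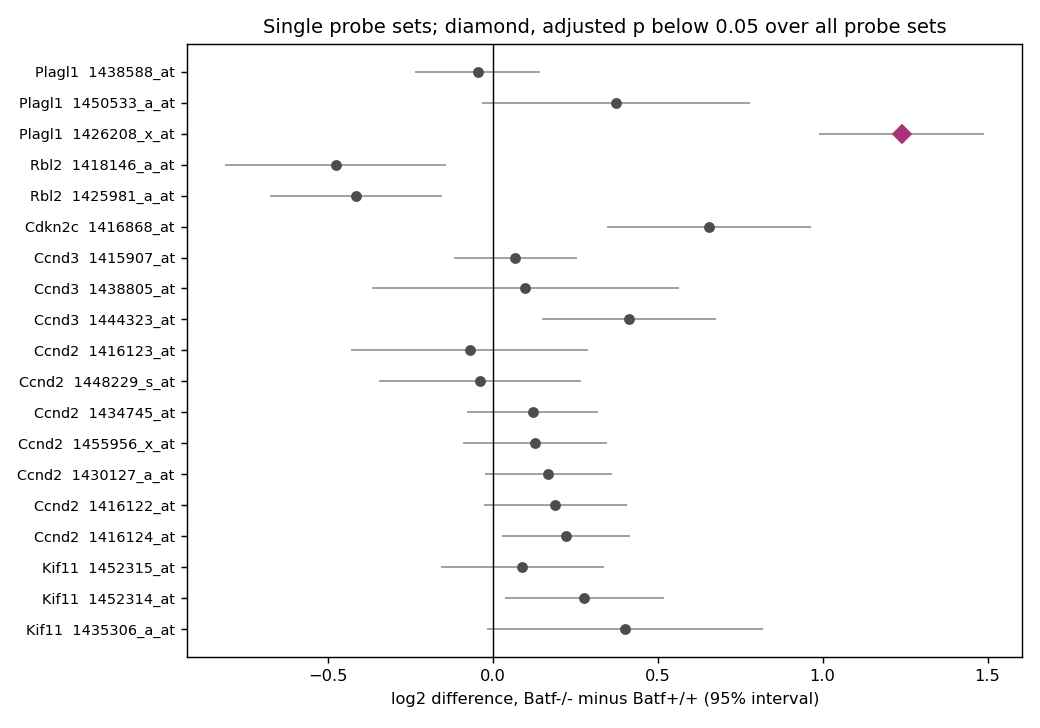
Log2 difference between Batf-/- and Batf+/+ Treg cells with its 95% interval (x axis) for each probe set (y axis) of Plagl1, Rbl2, Cdkn2c, Ccnd3, Ccnd2 and Kif11, over 3 arrays per genotype, with the diamond for an adjusted p below 0.05 over all 34945 probe sets. The probe sets of Plagl1 run from -0.05 to 1.24, while both of Rbl2 lie below 0, at -0.48 and -0.42.

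The 250 bases before the start of Cdkn2c and of Plagl1, which had the largest positive differences of the 51 genes, are shown in the same way. They are RefSeq sequences of GRCm38.p6, from chr4:109666757-109667006 on the minus strand for the outer of 2 starts of Cdkn2c and from chr10:13090582-13090831 on the plus strand for Plagl1.
Cdkn2c: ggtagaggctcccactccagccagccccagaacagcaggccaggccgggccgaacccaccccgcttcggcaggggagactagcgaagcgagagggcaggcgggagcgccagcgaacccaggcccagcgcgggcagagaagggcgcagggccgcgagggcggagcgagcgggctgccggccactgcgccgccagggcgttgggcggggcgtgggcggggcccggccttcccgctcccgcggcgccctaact
Plagl1: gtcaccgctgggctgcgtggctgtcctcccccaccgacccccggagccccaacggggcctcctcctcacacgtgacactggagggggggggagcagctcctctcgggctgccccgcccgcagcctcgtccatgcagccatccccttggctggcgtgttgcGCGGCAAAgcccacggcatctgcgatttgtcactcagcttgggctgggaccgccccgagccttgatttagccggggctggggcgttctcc

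The Cdkn2c window, with a GC content of 77.2%, has 0 matches to any of the 4 elements, and that of Plagl1, at 70.4%, has 1 match to the E2F letters, in capitals. Neither window holds the CCAAT or CHR letters seen in the mitotic promoters above.

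The pocket proteins and E2F factors sit downstream of the D cyclins. Rbl2, which encodes p130, the pocket protein of resting cells, was at 0.41, -0.05 and -0.02 in Batf+/+ and at -0.35, -0.35 and -0.30 in Batf-/- cells. The Batf-/- arrays lay close together and below all Batf+/+ arrays, of which array 1 stood apart. The log2 difference was -0.45 ± 0.12 (95% interval -0.72 to -0.17, limma adjusted p = 0.206), the lowest of the 51 genes, and -0.30 without Batf+/+ array 1. Its 2 probe sets gave -0.48 and -0.42. Rb1, the retinoblastoma protein, was at 0.05, 0.03 and -0.30 against -0.08, -0.10 and -0.20 (difference -0.05 ± 0.10). Rbl1, which encodes p107, did not overlap between the genotypes in the other direction, at 0.01, 0.01 and -0.11 against 0.15, 0.08 and 0.11 (0.14 ± 0.07, adjusted p = 0.798). E2f2 was at 0, -0.14 and 0.06 against 0.17, 0.07 and 0.43, just without overlap, with a difference of 0.25 ± 0.11 (adjusted p = 0.630). E2f1 had one of 0.09 ± 0.09.

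The D cyclins link growth signals to the cell cycle, and Ccnd2 and Ccnd3 are the forms lymphocytes use. Ccnd3 was at -0.02, 0.06 and -0.002 in Batf+/+ and at 0.31, 0.29 and 0.02 in Batf-/- cells, so Batf-/- array 3 lay within the Batf+/+ range. The log2 difference was 0.19 ± 0.09 (limma adjusted p = 0.736). By probe set it was 0.07, 0.10 and 0.41. On Batf-/- array 3 these probe sets were at 0.13, -0.39 and 0.31. The second lay below all of its Batf+/+ values there, and the others lay above all of theirs. Ccnd2 was at -0.01, -0.08 and 0.13 against 0.20, 0.01 and 0.13 (0.10 ± 0.09), and its 7 probe sets ran from -0.07 to 0.22. Ccnd1 was at -0.17, 0 and 0.25 against -0.15, 0.12 and 0.17, where arrays of the same number had similar values in both genotypes.

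The E cyclins, which start S phase with Cdk2, also had similar values on arrays of the same number. Ccne1 was at -0.20, 0 and 0.16 in Batf+/+ and at -0.18, 0.11 and 0.32 in Batf-/- cells, and Ccne2 was at 0.24, 0 and -0.30 against 0.13, 0.06 and -0.37. The genotype differences were 0.10 ± 0.14 and -0.04 ± 0.16. With the replicate block their SEs were 0.06 and 0.07 (limma adjusted p = 0.597 and 0.861). Cdk4 was at 0, -0.16 and 0.17 against -0.11, -0.11 and 0.18, and Cdk6 at 0, 0.13 and -0.13 against 0.18, -0.03 and -0.15. Their differences, -0.02 ± 0.11 and 0.003 ± 0.107, and that of Cdk2, -0.04 ± 0.08, had intervals within a 1.5-fold change.

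Of a wider list of 36 cell cycle regulators 35 were measured, with a median log2 difference of 0.03. Of these 1 rose and 0 fell (2.86% called, beside 1.14% of all genes). Gadd45g, a stress-inducible protein of growth arrest, was at 0, 0.26 and -0.01 in Batf+/+ and at 0.65, 0.60 and 0.87 in Batf-/- cells. It rose 1.54-fold (log2 difference 0.63 ± 0.11, limma adjusted p = 0.0283). Leaving out Batf+/+ array 1 or 3 gave an adjusted p of 0.127 or 0.109, and it was 0.0598, 0.0548 and 0.0704 without Batf-/- array 1, 2 or 3, 0.222 after quantile normalization and 0.0635 when every probe set was tested. Ccng2, a cyclin of arrested cells, had a difference of -0.14 ± 0.07, and E2f8, an E2F repressor, one of 0.24 ± 0.13 (adjusted p = 0.791 and 0.817).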

How the data were processed

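Gene expression of Batf+/+ and Batf-/- Treg cells was measured on 3' expression arrays, 3 per genotype. The authors' deposited values were taken as log2. RMA is the method named in the submitters' processing notes, and its version and log base are not given in the sources used here. In each of the 45101 probe sets the median of the Batf+/+ arrays is exactly 0, so the values are relative to it, which leaves differences unchanged but removes absolute levels. Signal over background and scan date were not used here. No filter on low values was applied.

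A gene was the mean of its probe sets with exactly 1 gene in the platform annotation. Genotypes were compared over 18193 genes with limma 3.58.1 in R 4.3.3 (lmFit, eBayes, Benjamini-Hochberg over all genes), with calls at an adjusted p below 0.05. Single probe sets were fitted likewise over 34945. The script was tested on simulated data. Named genes are the called members, the 5 lowest p values of each class, a fixed set of members, and the 3 lowest p values or calls of each wider list. Birc5, Ccnb2, Ube2c, Stmn1 and Cd79b were described per array after their values were seen. Members and lists were chosen with earlier results of these data known. Alternatives were quantile normalization, equal array medians, array weights, the replicate block, every probe set, no probe sets with the suffix _s, _x or _a, and leaving out each array.

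For array numbers 1, 2 and 3, the deviation from the genotype mean correlated between the genotypes, over genes, at 0.407, 0.154 and 0.413. Each exceeds the minimum of 0.1, and on that ground from the data the numbers count as pairs. The labels do not say what a shared number stands for. Values given without mention of the block come from the fit without it, so their SEs and intervals include the differences between array numbers.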

Additional observations from a re-analysis of the deposited data

How the results depend on the processing

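Over the 12 alternatives, 595 of 606 values of the 51 genes stayed on the same side of the threshold. The others belong to Plagl1, Cdkn2c and Ccnb2, and 68 values changed sign with neither fit past the threshold. The number of called genes of cyclin-CDK control, and of all members, was 1. It became 0 after quantile normalization and 0 without probe sets with the suffix _s, _x or _a. There Plagl1 kept 1 probe set, with a difference of -0.0462 that did not pass. The number became 2 with array weights and 2 with the replicate block, which added Cdkn2c and changed no other call among the members. Leaving out 1 array gave 0 to 1 called genes of cyclin-CDK control, 0 to 1 mitotic genes (Ccnb2, without Batf-/- array 3) and 0 to 2 members in all. With 1 array left out the median log2 difference ran from -0.0332 to 0.0186 for S-phase genes, from -0.06 to 0.08 for mitotic genes and from 0.0233 to 0.10 for cyclin-CDK control. The number of called genes over all 18193 was 81 after quantile normalization, 293 with the replicate block, and between 105 and 192 with 1 array left out. Levels are unknown, so a gene below detection could not be told from one that did not differ.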
